A study of Mus musculus with 21 samples.

Results

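The Hox genes analysed here are the rows of the expression table named Hoxa, Hoxb, Hoxc or Hoxd followed by a number, 39 of its 23983 genes, and 38 of them are described. They lie in 4 clusters, namely 10 genes of HoxA, from *Hoxa2* to *Hoxa13*, on chromosome 6 (52162417 to 52260880), 10 of HoxB on chromosome 11 (96194316 to 96368253), 9 of HoxC on chromosome 15 (102921131 to 103036852) and 9 of HoxD on chromosome 2 (74668225 to 74765142; mm10, RefSeq transcripts). All counts, sums and shares below are over these 38 genes. The genes were described by paralogue number, which runs from 1 to 13, and by cluster in 9 RNA-seq libraries, and peaks of the T-box factor T (brachyury) and of the forkhead factor Foxa2 were located in the clusters from 2 ChIP-seq libraries. Fluorescence-activated cell sorting of mouse embryos gave notochord progenitors (NotoPs; Noto+/T+/Foxa2+) and mesodermal progenitors (MPs; T+/Noto-/Foxa2-) of the caudal end, and T+/Noto+/Foxa2+ notochord of the trunk, each at E8.5 (Theiler stage 12) and E9.5 (Theiler stage 16). The study's supplement lists the Foxa2 gate as high for E9.5 NotoPs and both trunk libraries, and the T gate as high for MPs. The NotoP stages thus differ in gate too, as do trunk notochord and NotoPs at E8.5. The labels give all of these embryos as obtained by tetraploid complementation, where the study's text names diploid morula aggregation, from F1G4 (C57BL/6N x SV129) ES cells with 3 BAC reporters, T::H2B-Venus, Noto::H2B-mCherry and Foxa2::H2B-mTurquoise, and tissue of several embryos was pooled before sorting. The cultured cells derive from another modified F1G4 line with TRE::Foxa2-IRES-EGFP at Rosa26, T::H2B-mCherry-T2A-irTA and Noto::H2B-mTurquoise, all 3 of which the controls carry too. They were sorted as T+/Noto- NMPdiff cells (the *in vitro* counterpart of neuro-mesodermal progenitors; CHIR99021, an activator of the Wnt pathway, to day 3, at 5 µM), T+/Noto- MPdiff cells (CHIR99021 to day 4) and Noto+/T+ NotoPdiff cells (CHIR99021 to day 4 with doxycycline at 1 ng/ml, which switches on Foxa2 in T-expressing cells). The ChIP-seq libraries are of whole NotoPdiff cultures on day 4, so that their peaks are not those of sorted cells. Every condition has 1 library. No difference below therefore has a replicate check, and no SD or p-value is given.

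Hox genes encode homeodomain transcription factors that give cells of the body axis their position along it. Within a cluster the genes lie in the order of their numbers, and as the caudal end grows, low-numbered genes are activated early and reach far forward, whereas high-numbered genes follow later and stay near the tail. Along the body axis, genes of the low numbers act in the hindbrain and neck and those of the middle numbers in the thorax. Those of the high numbers act in the lumbar, sacral and tail regions. Genes that share a number in different clusters are paralogues and often act redundantly.

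FPKM hold no read counts, and no counting error is given. Of the embryonic libraries, that of E8.5 MPs came from the fewest cells and has the fewest mapped reads, per the study's supplementary methods, followed in both by the 2 of trunk notochord. The E8.5 MP library has 13945 genes listed at 0, against 10719 to 12407 in the other embryonic and 7573 to 8246 in the cultured libraries. The cultured libraries were sequenced on another instrument, so ratios were formed among them only, and embryo and culture are set side by side by level or by share of the library's own Hox sum. Of 8 notochord markers, all reached 1 FPKM in NotoPs at both stages, in E8.5 trunk notochord and in NotoPdiff cells and 7 in E9.5 trunk notochord, where *Chrd* is listed at 0, and *Noto* is at 0 in the MP libraries of both stages and in MPdiff cells. Of 5 gut endoderm markers, the summed level was 141 and 97.8 FPKM in NotoPs, 140.2 and 61.2 in trunk notochord and 236 in NotoPdiff cells, against 6.58 to 29.4 in MPs and MPdiff cells and 32.0 in NMPdiff cells; *Sox17*, a defining one, had 7.46 FPKM in NotoPdiff, 0.545 in MPdiff and 0.599 in NMPdiff cells, 3.58 and 5.37 in NotoPs and MPs of E8.5, and is listed at 0 in the other 4 libraries. The 5 neural tube markers summed to 25.4 FPKM in E8.5 trunk notochord and to between 1.102 and 8.27 in the other libraries. In E8.5 trunk notochord *Nkx6-1* was at 14.7, *Sox3* at 7.46 and *Sox1* at 3.27 FPKM, while *Pax6* and *Olig2* are listed at 0. The 5 blood markers were all at 0 in the 6 embryonic libraries and below 1 FPKM in the cultured ones. The 5 pluripotency markers summed to 317 FPKM in NMPdiff cells, 14.1 in NotoPdiff and 15.1 in MPdiff cells, and to less than 1 in each embryonic library. The part of these other cell types in the results below was not tested. Of 4 neuro-mesodermal markers, NMPdiff cells had *T* at 406 and *Nkx1-2* at 41.5 FPKM, but *Sox2* at only 1.07 and *Cdx2* at 3.49. *Sox2* and *Cdx2* were higher in NotoPdiff (9.24 and 39.9 FPKM) and MPdiff cells (3.49 and 47.0), and *T* and *Nkx1-2* were lower in both. *Foxa2* itself had 95.5 FPKM in NotoPdiff, 12.5 in NMPdiff and 1.22 in MPdiff cells, a value that holds reads of the transgene and of the endogenous gene alike.

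Hox genes were most abundant in the caudal progenitors and least in NMPdiff cells. Their FPKM summed to 335 in E8.5 NotoPs and 744 at E9.5, to 766 and 1040 in MPs and to 70.0 and 174 in trunk notochord. In culture the sums were 29.1 in NMPdiff, 86.2 in NotoPdiff and 285 in MPdiff cells. As a share of all FPKM this is between 0.00721% in NMPdiff cells and 0.256% in E9.5 MPs. In these sorted populations fewer expressing cells and less RNA per cell cannot be told apart.

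Of the 38 genes, 25 reached 1 FPKM in E8.5 NotoPs and 34 at E9.5, 31 and 36 in MPs, and 15 and 24 in trunk notochord. In culture 2 genes reached 1 FPKM in NMPdiff, 16 in NotoPdiff and 20 in MPdiff cells. Over all genes the share at 1 FPKM or more differed much less, from 39.7% in E8.5 MPs to 49.5% in NotoPdiff cells. Only *Hoxb13*, which acts in the tail and prostate, is listed at 0 in all 9 libraries, and *Hoxb1* and *Hoxb2*, genes of hindbrain patterning, reached 1 FPKM in all 9.

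The make-up by paralogue number followed stage and population. Numbers 1 to 4 held 97.8% of the Hox FPKM in NMPdiff, 78.9% in NotoPdiff and 74.9% in MPdiff cells, 68.9% and 52.8% in trunk notochord at E8.5 and E9.5, 54.1% and 30.7% in NotoPs, and 36.6% and 24.8% in MPs. Numbers 10 to 13 held 43.0% in E9.5 MPs and 26.9% in E9.5 NotoPs, against 4.55% in E8.5 MPs and between 0.421% and 2.19% in the other 6 libraries. The high numbers were thus a large fraction of the Hox transcripts in the 2 caudal libraries of E9.5. Weighted by FPKM, the mean paralogue number went from 4.72 to 6.92 in NotoPs, from 5.99 to 7.57 in MPs and from 3.66 to 4.76 in trunk notochord, and was 1.44, 3.19 and 3.55 in NMPdiff, NotoPdiff and MPdiff cells. These shares are descriptions of single libraries.

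**Figure D1:**
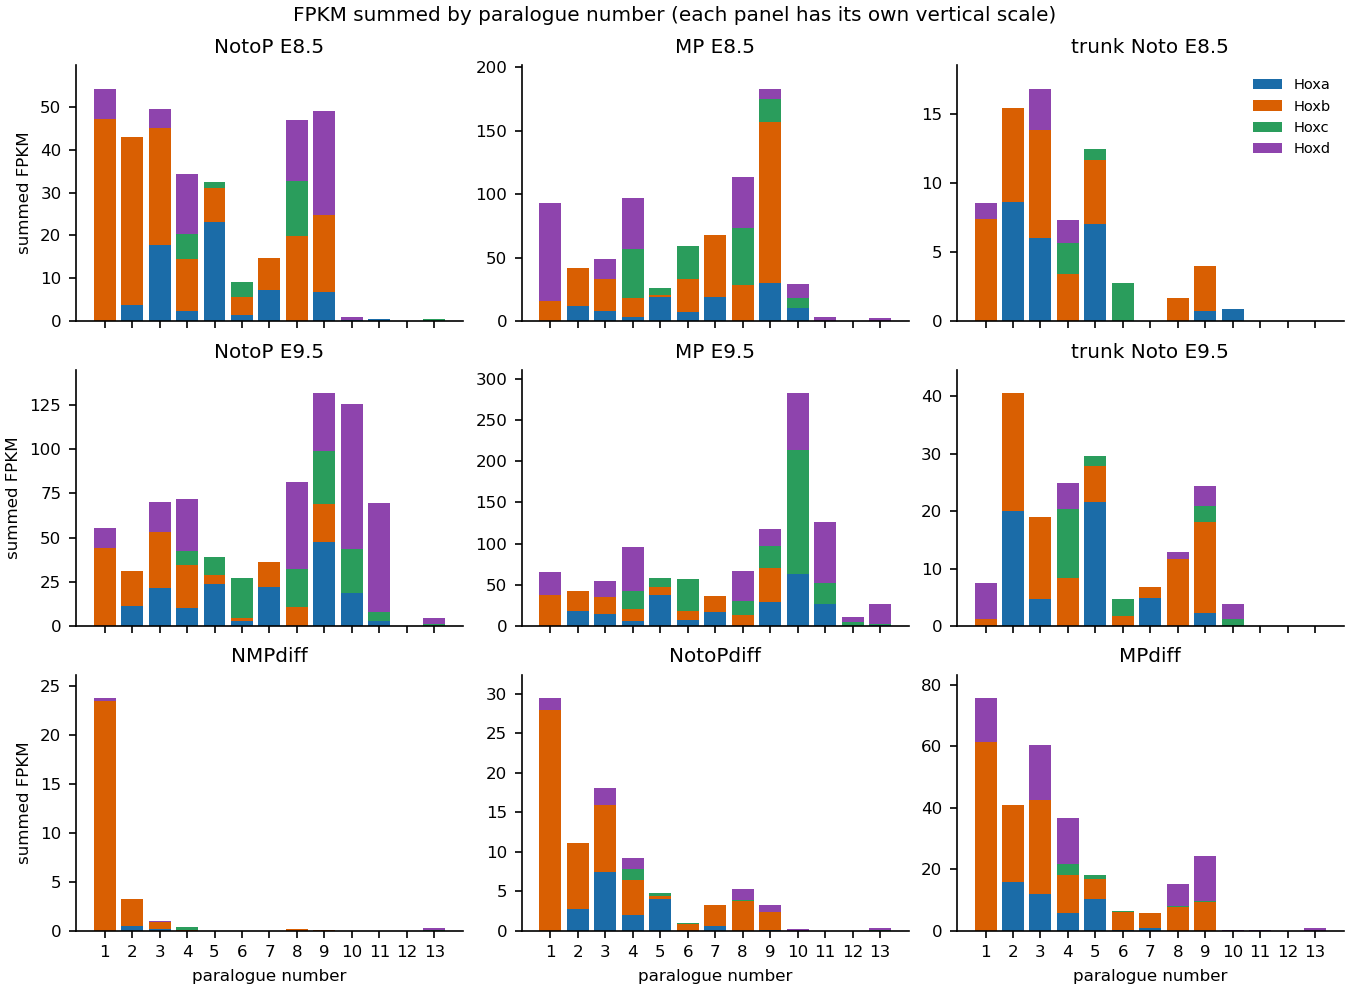
FPKM summed by paralogue number (horizontal axis) in each of the 9 libraries, with the bars stacked by cluster; every panel has its own linear vertical scale that starts at 0. Numbers 10 and 11 are tall in the E9.5 MP and NotoP panels, at 282 and 126 and at 126 and 69.8 FPKM, and number 1 is the tallest bar in E8.5 NotoP and in the 3 cultures.

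The clusters contributed unequally. HoxB held 54.8% of the Hox FPKM in E8.5 NotoPs and 23.4% in E9.5 NotoPs, where the share of HoxD went from 19.3% to 38.6%. In MPs HoxB held 41.6% in the earlier and 18.3% in the later library, and HoxC 18.4% and 28.7%. In trunk notochord HoxB held 49.9% and 46.9% and HoxA 33.3% and 30.7%. In culture HoxB held between 57.6% and 94.0%, and HoxC between 1.45% and 2.58%. HoxC was thus the smallest cluster by share in all 3 cultures. It was also the smallest in NotoPs of both stages (7.09% and 16.5%) and in E8.5 trunk notochord (8.27%, beside 8.47% for HoxD). In MPs and in E9.5 trunk notochord it was not the smallest.

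**Figure D2:**
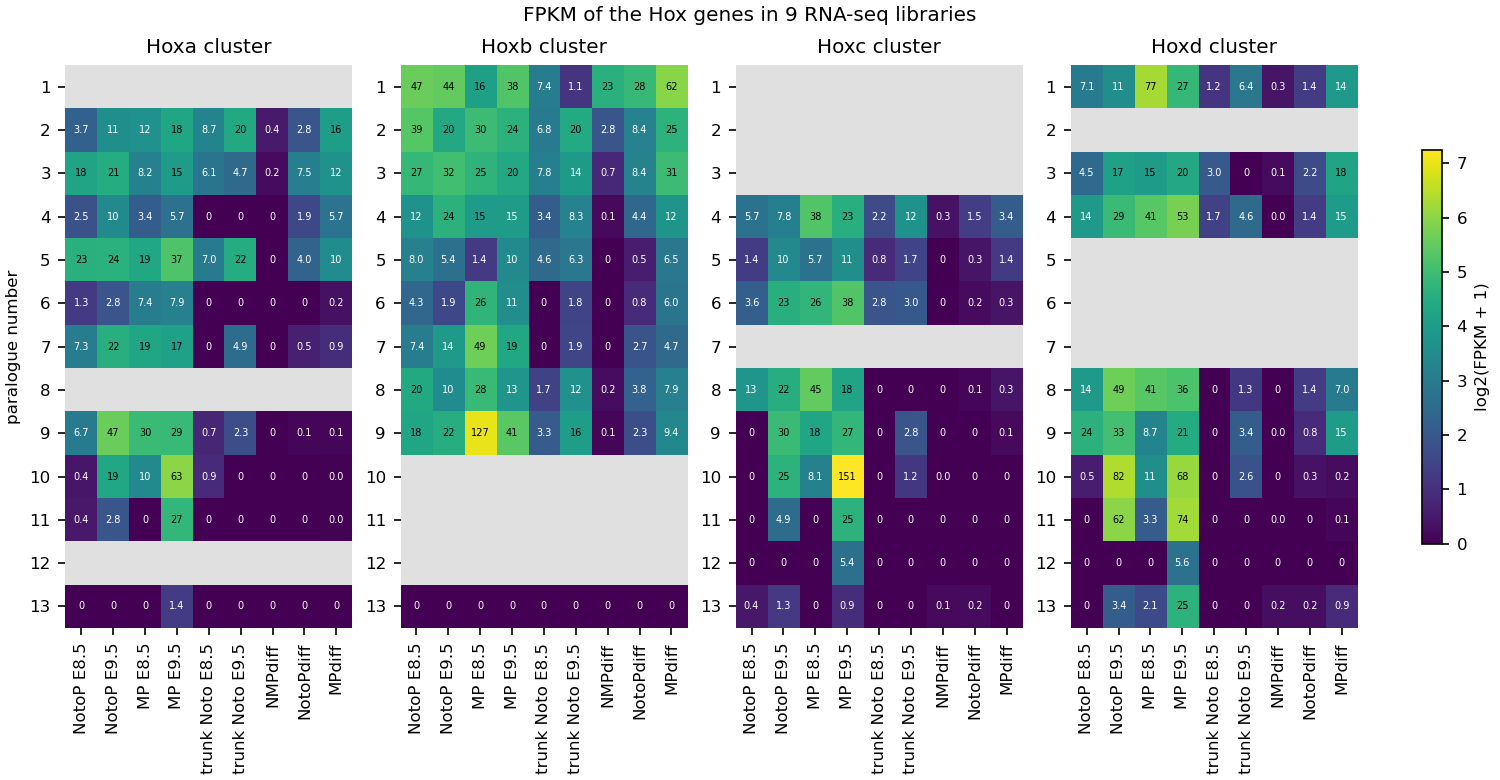
FPKM of 38 Hox genes in the 9 libraries (columns), by paralogue number (rows) and cluster (panels); colour is log2(FPKM + 1), the printed numbers are FPKM, and grey marks numbers for which no gene is shown. In trunk notochord and in the cultures the values of 1 FPKM or more stop at number 10 or below, and *Hoxc10* in E9.5 MPs is the highest of all, at 151 FPKM.

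Of the genes of numbers 1 to 3, which pattern hindbrain and pharyngeal arches, only *Hoxb1* and *Hoxb2* reached 1 FPKM in NMPdiff cells. *Hoxb1* had 47.2 FPKM in NotoPs of E8.5 and 44.3 in those of E9.5, 16.2 and 37.9 in MPs, 7.41 and 1.14 in trunk notochord, and 23.5, 28.0 and 61.5 in NMPdiff, NotoPdiff and MPdiff cells. *Hoxb1* was lowest in trunk notochord at E9.5. *Hoxd1* had 7.09 FPKM in NotoPs of E8.5 and 11.1 in those of E9.5, 76.7 and 27.3 in MPs, 1.18 and 6.38 in trunk notochord, and 0.327, 1.44 and 14.1 in NMPdiff, NotoPdiff and MPdiff cells. For *Hoxb2*, the values at E8.5 and E9.5 were 39.4 and 19.8 FPKM in NotoPs, 30.3 and 24.4 in MPs and 6.75 and 20.4 in trunk notochord, with 2.77 in NMPdiff, 8.37 in NotoPdiff and 24.9 in MPdiff cells. *Hoxd1* was highest in E8.5 MPs and below 2 FPKM in E8.5 trunk notochord, NMPdiff and NotoPdiff cells. *Hoxa2* measured 3.72 FPKM in NotoPs of E8.5 and 11.2 in those of E9.5, 11.7 and 18.03 in MPs, 8.67 and 20.1 in trunk notochord, and 0.444, 2.80 and 15.8 in NMPdiff, NotoPdiff and MPdiff cells. *Hoxa2* specifies the second pharyngeal arch, and its lowest value was that of NMPdiff cells.

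*Hoxb3* had 27.3 FPKM in NotoPs of E8.5 and 32.2 in those of E9.5, 25.3 and 19.9 in MPs, 7.79 and 14.3 in trunk notochord, and 0.736, 8.44 and 30.6 in NMPdiff, NotoPdiff and MPdiff cells. For *Hoxa3*, the values at E8.5 and E9.5 were 17.8 and 21.3 FPKM in NotoPs, 8.16 and 15.1 in MPs and 6.05 and 4.67 in trunk notochord, with 0.155 in NMPdiff, 7.50 in NotoPdiff and 12.1 in MPdiff cells. The 2 highest values of *Hoxa3*, which is needed for thymus and parathyroid, were those of NotoPs. *Hoxd3* had 4.55 FPKM in NotoPs of E8.5 and 16.9 in those of E9.5, 15.2 and 19.7 in MPs, 3.03 and 0 in trunk notochord, and 0.148, 2.16 and 17.7 in NMPdiff, NotoPdiff and MPdiff cells. For *Hoxd4*, the values at E8.5 and E9.5 were 14.0 and 29.4 FPKM in NotoPs, 40.6 and 53.1 in MPs and 1.72 and 4.64 in trunk notochord, with 0.0140 in NMPdiff, 1.43 in NotoPdiff and 15.0 in MPdiff cells. *Hoxd4*, a gene of the neck vertebrae, was highest in MPs at E9.5 and at most 4.64 FPKM in trunk notochord. *Hoxa4* had 2.47 FPKM in NotoPs of E8.5 and 10.1 in those of E9.5, 3.40 and 5.69 in MPs, 0 and 0 in trunk notochord, and 0, 1.94 and 5.72 in NMPdiff, NotoPdiff and MPdiff cells. It is listed at 0 in 3 libraries, both of trunk notochord and NMPdiff. The other genes of number 4, *Hoxb4* and *Hoxc4*, were between 5.71 and 38.0 FPKM in NotoPs and MPs and between 2.22 and 12.0 in trunk notochord.

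Genes of numbers 5 to 9 act in the neck and thorax, *Hoxa5* also in the lung. *Hoxa5* had 23.1 FPKM in NotoPs of E8.5 and 23.7 in those of E9.5, 19.4 and 37.0 in MPs, 7.03 and 21.5 in trunk notochord, and 0, 3.97 and 10.4 in NMPdiff, NotoPdiff and MPdiff cells. For *Hoxb5*, the values at E8.5 and E9.5 were 7.96 and 5.43 FPKM in NotoPs, 1.37 and 10.1 in MPs and 4.64 and 6.27 in trunk notochord, with 0 in NMPdiff, 0.488 in NotoPdiff and 6.53 in MPdiff cells. *Hoxa5* was thus the gene of numbers 5 to 9 with the highest level in trunk notochord at both stages. *Hoxc6* had 3.55 FPKM in NotoPs of E8.5 and 22.7 in those of E9.5, 26.1 and 37.9 in MPs, 2.76 and 2.99 in trunk notochord, and 0, 0.153 and 0.300 in NMPdiff, NotoPdiff and MPdiff cells. For *Hoxb7*, the values at E8.5 and E9.5 were 7.43 and 14.2 FPKM in NotoPs, 49.1 and 19.1 in MPs and 0 and 1.87 in trunk notochord, with 0 in NMPdiff, 2.69 in NotoPdiff and 4.73 in MPdiff cells. Both were at or below 3 FPKM in trunk notochord. *Hoxa7* had 7.25 FPKM in NotoPs of E8.5 and 22.1 in those of E9.5, 18.6 and 16.9 in MPs, 0 and 4.87 in trunk notochord, and 0, 0.549 and 0.936 in NMPdiff, NotoPdiff and MPdiff cells. For *Hoxd8*, the values at E8.5 and E9.5 were 14.3 and 49.3 FPKM in NotoPs, 40.5 and 35.5 in MPs and 0 and 1.28 in trunk notochord, with 0 in NMPdiff, 1.39 in NotoPdiff and 7.03 in MPdiff cells. *Hoxd8* exceeded 35 FPKM in MPs of both stages and in E9.5 NotoPs.

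*Hoxb9* had 18.2 FPKM in NotoPs of E8.5 and 21.7 in those of E9.5, 127 and 41.2 in MPs, 3.26 and 15.9 in trunk notochord, and 0.0929, 2.35 and 9.42 in NMPdiff, NotoPdiff and MPdiff cells. The value of 127 FPKM in E8.5 MPs was the highest of any Hox gene at E8.5. For *Hoxd9*, the values at E8.5 and E9.5 were 24.2 and 32.8 FPKM in NotoPs, 8.65 and 21.1 in MPs and 0 and 3.40 in trunk notochord, with 0.0171 in NMPdiff, 0.811 in NotoPdiff and 14.8 in MPdiff cells. *Hoxc9* had 0 FPKM in NotoPs of E8.5 and 29.6 in those of E9.5, 18.1 and 26.6 in MPs, 0 and 2.77 in trunk notochord, and 0, 0 and 0.126 in NMPdiff, NotoPdiff and MPdiff cells. *Hoxc9* and its neighbours on the side of the high numbers were at 0 in E8.5 NotoPs apart from *Hoxc13* at 0.388 FPKM. *Hoxa9* rose from 6.72 to 47.5 FPKM in NotoPs and was 29.7 and 29.3 in MPs. In culture the genes of number 9 in HoxB and HoxD reached 9.42 and 14.8 FPKM in MPdiff cells, whereas those in HoxA and HoxC were at 0.0942 and 0.126. The remaining genes of numbers 5 to 8, *Hoxa6*, *Hoxb6*, *Hoxb8*, *Hoxc5* and *Hoxc8*, ranged from 1.35 to 44.9 FPKM in NotoPs and MPs, and 3 of them, *Hoxa6*, *Hoxb6* and *Hoxc8*, are listed at 0 in E8.5 trunk notochord.

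Genes of number 10 suppress ribs in the lumbar region, those of number 11 specify the sacrum, and those of number 13 act where the axis ends. *Hoxc10* had 0 FPKM in NotoPs of E8.5 and 24.9 in those of E9.5, 8.14 and 151 in MPs, 0 and 1.24 in trunk notochord, and 0.0187, 0 and 0 in NMPdiff, NotoPdiff and MPdiff cells. For *Hoxd10*, the values at E8.5 and E9.5 were 0.510 and 82.2 FPKM in NotoPs, 11.2 and 68.5 in MPs and 0 and 2.57 in trunk notochord, with 0 in NMPdiff, 0.289 in NotoPdiff and 0.188 in MPdiff cells. The 2 genes thus differed at E9.5: *Hoxc10* was 6.06 times as high in MPs as in NotoPs, while *Hoxd10* was 1.1999 times as high in NotoPs as in MPs. *Hoxd10* and *Hoxa10* were chosen for full description after their values were seen. *Hoxa10* had 0.368 FPKM in NotoPs of E8.5 and 18.8 in those of E9.5, 10.1 and 62.8 in MPs, 0.858 and 0 in trunk notochord, and 0, 0 and 0.0371 in NMPdiff, NotoPdiff and MPdiff cells. For *Hoxd11*, the values at E8.5 and E9.5 were 0 and 62.0 FPKM in NotoPs, 3.28 and 74.5 in MPs and 0 and 0 in trunk notochord, with 0.00985 in NMPdiff, 0 in NotoPdiff and 0.0769 in MPdiff cells. In E8.5 NotoPs all 3 genes of number 11 were below 1 FPKM. *Hoxa11* had 0.412 FPKM in NotoPs of E8.5 and 2.81 in those of E9.5, 0 and 26.98 in MPs, 0 and 0 in trunk notochord, and 0, 0 and 0.0380 in NMPdiff, NotoPdiff and MPdiff cells. The exons of *Hoxa11* overlap the antisense transcript *Hoxa11os* over 568 bases, and mapping used the strand. No pair of Hox genes shares exon sequence on the same strand in the RefSeq models, but the longest model of *Hoxa3* spans *Hoxa4* to *Hoxa6* and that of *Hoxd3* spans *Hoxd4*.

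*Hoxd12* had 0 FPKM in NotoPs of E8.5 and 0 in those of E9.5, 0 and 5.59 in MPs, 0 and 0 in trunk notochord, and 0, 0 and 0 in NMPdiff, NotoPdiff and MPdiff cells. *Hoxd13* had 0 FPKM in NotoPs of E8.5 and 3.37 in those of E9.5, 2.09 and 24.7 in MPs, 0 and 0 in trunk notochord, and 0.202, 0.216 and 0.858 in NMPdiff, NotoPdiff and MPdiff cells. *Hoxc12* has the same pattern as *Hoxd12*, with 5.42 FPKM in E9.5 MPs and 0 in the other 8 libraries. The genes of number 12 were thus found in E9.5 MPs alone. *Hoxc13* had 0.388 FPKM in NotoPs of E8.5 and 1.32 in those of E9.5, 0 and 0.940 in MPs, 0 and 0 in trunk notochord, and 0.133, 0.160 and 0 in NMPdiff, NotoPdiff and MPdiff cells. *Hoxa13* had 1.39 FPKM in E9.5 MPs and 0 elsewhere, and *Hoxc11* 4.93 in E9.5 NotoPs, 25.0 in E9.5 MPs and 0 elsewhere.

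The comparison of stages asks how the Hox genes of each population changed from E8.5 to E9.5. Changes are log2 ratios after adding 1 to both FPKM values, and a gene was counted as higher or lower where that ratio reached 3-fold (1.58). In NotoPs 13 of 38 Hox genes were higher at E9.5, beside 2.3% of all 23983 genes, and 0 were lower, beside 1.99%. In MPs 10 were higher, beside 6.02% of all genes, and 1 was lower, beside 3.23%. The median log2 change of the 38 genes was 0.80 in NotoPs and 0.56 in MPs, against a median of 0 over all genes in both. In NotoPs 6 of the 12 genes of numbers 10 to 13 were among the higher ones and in MPs 9 of 12. Of the 38 genes, 6 were higher in both, which is 6 of the 13 in NotoPs and 6 of the 10 in MPs. The share of all genes higher in both was not computed. Of the 10 HoxB genes none was higher in NotoPs and 1, *Hoxb5*, in MPs.

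The largest rise in NotoPs was that of *Hoxd11*, which is listed at 0 at E8.5 and had 62.0 FPKM at E9.5. *Hoxd10* rose by 5.78, *Hoxa10* by 3.86 and *Hoxa9* by 2.65 on the log2 scale. *Hoxc9* and *Hoxc10* were at 0 at E8.5 and at 29.6 and 24.9 FPKM at E9.5. In MPs *Hoxc10* rose by 4.06 and *Hoxd11* by 4.14 on the log2 scale, *Hoxa11* and *Hoxc11* went from 0 to 26.98 and 25.0 FPKM, and *Hoxb9* was the only gene lower by 3-fold (log2 change -1.60).

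In trunk notochord 8 Hox genes were higher at E9.5, beside 4.28% of all genes, and 2 were lower, beside 5.79%; the median change of the 38 was 0.70. Among the higher ones were *Hoxb8* (log2 change 2.25), *Hoxc4* (2.01), *Hoxb9* (1.98) and *Hoxd1* (1.76), and *Hoxa7* and *Hoxd9*, listed at 0 at E8.5, reached 4.87 and 3.40 FPKM. The lower ones were *Hoxb1* (log2 change -1.97) and *Hoxd3*, which is listed at 0 at E9.5. Only 12 of the 38 genes reached 5 FPKM in either trunk library, and when a pseudocount of 5 was added, 0 genes passed 3-fold in either direction.

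The comparison of NotoPs with MPs asks how notochord progenitors differ from mesodermal progenitors of the same caudal region. At E8.5 15 Hox genes were lower in NotoPs, beside 4.02% of all genes, and 1 was higher, beside 8.83%. At E9.5 8 were lower, beside 1.11% of all genes, and 0 were higher, beside 2.63%. The median log2 change of the 38 genes was -1.44 at E8.5 and -0.35 at E9.5, with medians over all genes of 0. The lower genes of both stages share 4, *Hoxb6*, *Hoxa10*, *Hoxc10* and *Hoxd13*, which is 4 of 15 at E8.5 and 4 of 8 at E9.5. The share of all genes lower at both stages was not computed. With the E9.5 MP library in place of E8.5 MPs, 19 genes were lower and 0 higher in E8.5 NotoPs. That swap changes the stage as well. In MPs 9 of the 12 genes of numbers 10 to 13 were higher at E9.5 than at E8.5. Stage and population therefore cannot be told apart in it. Markers of paraxial mesoderm, 8 in all, summed to 209 FPKM in NotoPs and 198 in MPs at E8.5, and to 146 and 371 at E9.5. At E8.5 *Hes7* (74.3 and 5.38 FPKM), *Tbx6* and *Tcf15* were higher in NotoPs. *Msgn1*, *Dll1*, *Meox1*, *Foxc2* and *Pax3* were lower in them. The part of paraxial mesoderm cells in the NotoP libraries was not tested.

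At E8.5 the largest differences with values above 0 in both populations were those of *Hoxd1* (log2 change -3.26; 7.09 FPKM in NotoPs and 76.7 in MPs), *Hoxa10* (-3.02), *Hoxd10* (-3.02) and *Hoxb9* (-2.74). *Hoxc9* was at 0 in NotoPs and at 18.1 FPKM in MPs. The single gene higher in NotoPs was *Hoxb5* (7.96 against 1.37 FPKM, log2 change 1.92). *Hoxb1* was 2.91 times and *Hoxd9* 2.80 times as high in NotoPs as in MPs, and neither reached 3-fold after the pseudocount was added. In HoxC, 5 of 9 genes were lower, compared with 3 of 10 in HoxA, 3 of 10 in HoxB and 4 of 9 in HoxD.

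At E9.5 7 of the 8 lower genes were of numbers 10 to 13. *Hoxa11* had 2.81 FPKM in NotoPs and 26.98 in MPs (log2 change -2.87), *Hoxd13* 3.37 and 24.7 (-2.55), *Hoxc11* 4.93 and 25.0 (-2.13) and *Hoxa10* 18.8 and 62.8 (-1.69). *Hoxc12* and *Hoxd12* were at 0 in NotoPs. *Hoxd10* and *Hoxd11* did not show this difference: their log2 changes were 0.26 and -0.26. HoxD therefore made up 73.7% of the FPKM of numbers 10 to 13 in NotoPs and 38.8% in MPs, whereas HoxC made up 15.6% and 40.8% and HoxA 10.8% and 20.4%. Outside numbers 10 to 13, the lower gene was *Hoxb6* (-1.99). The 4 genes of number 9 were between -0.89 (*Hoxb9*) and 0.68 (*Hoxa9*). These cluster-wise values compare 1 NotoP with 1 MP library.

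**Figure D3:**
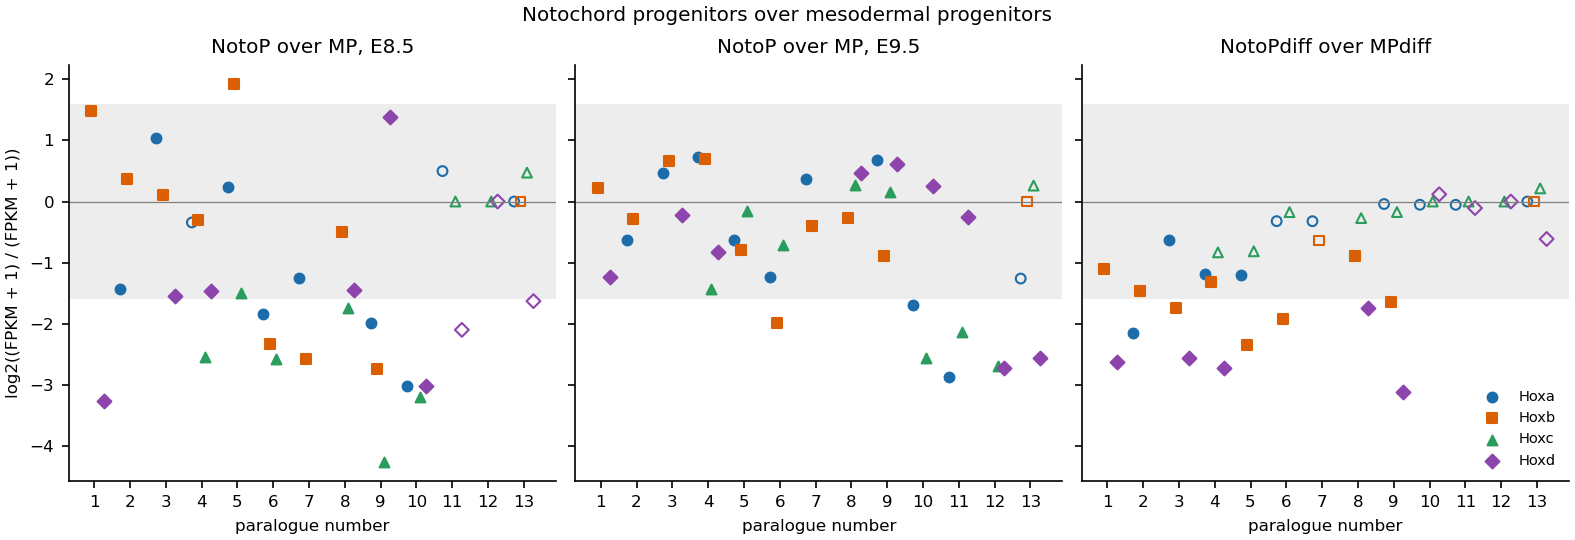
Log2 ratio (after adding 1 to FPKM) of NotoP over MP at E8.5, of NotoP over MP at E9.5 and of NotoPdiff over MPdiff, by paralogue number, for 38 Hox genes; colours and shapes mark the cluster, open symbols genes below 5 FPKM in both libraries, and the grey band differences under 3-fold. At E9.5 *Hoxd10* (0.26) and *Hoxd11* (-0.26) lie inside the band and *Hoxa10*, *Hoxc10*, *Hoxa11* and *Hoxc11* below it; in culture the 12 genes of numbers 10 to 13 are all open symbols.

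The comparison of trunk notochord with NotoPs sets notochord of the trunk against notochord progenitors of the caudal end at the same stage. The populations differ in axial level as well as in state, and these cannot be told apart here. At E8.5 16 Hox genes were lower in the trunk, beside 4.17% of all genes, and 0 were higher, beside 4.58%. At E9.5 22 were lower, beside 5.17% of all genes, and 0 were higher, beside 4.33%. The median log2 changes were -1.15 and -1.97, against 0 over all genes. Of the Hox genes, 9 were lower at both stages (9 of 16 and 9 of 22), and the share of all genes that were was not computed. Since 20 genes are listed at 0 in E8.5 trunk notochord and 14 in E9.5, many of these differences have no finite ratio. The trunk libraries came from fewer cells and have fewer reads than those of NotoPs. The trunk embryos also cover a wider range of somite stages, both at E8.5 and at E9.5. The part of these differences in the zeros was not tested. Among genes above 0 in both libraries, the log2 change was -2.98 for *Hoxb8*, -2.52 for *Hoxb1* and -2.46 for *Hoxd4* at E8.5, and -4.54 for *Hoxd10*, -4.47 for *Hoxd8* and -4.40 for *Hoxb1* at E9.5. *Hoxd9* at E8.5 and *Hoxd11* at E9.5 are listed at 0 in the trunk.

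Of the 38 genes, 2 at E8.5 and 5 at E9.5 were above their NotoP value by less than 3-fold. Among them were *Hoxa2* at both stages (8.67 against 3.72 and 20.1 against 11.2 FPKM) and *Hoxc4* at E9.5 (12.0 against 7.79). Paraxial mesoderm markers, 8 in all, summed to 209 and 146 FPKM in the NotoP libraries and 59.2 and 18.9 in those of the trunk, where *Tbx6*, *Msgn1* and *Hes7* are listed at 0. Of the 8, *Meox1* (14.9 in NotoPs and 25.9 in the trunk), *Tcf15* (1.01 and 11.8), *Foxc2* (2.77 and 9.69) and *Pax3* (0.279 and 9.90), genes of somites and their derivatives, were higher in the trunk at E8.5, and *Foxc2* (2.13 and 3.49) and *Pax3* (0.572 and 1.41) also at E9.5. Whether these cells contribute to the lower Hox values of the trunk was not tested.

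In culture, the comparisons with NMPdiff cells set day 4 cells against day 3 cells. That of NotoPdiff with MPdiff cells asks how both day 4 populations differ. NotoPdiff cells differ from NMPdiff cells in doxycycline and in the sort for Noto too, which cannot be told apart from the day. MPdiff cells had 18 genes higher than NMPdiff cells, beside 0.901% of all genes, and 0 lower, beside 1.48%. NotoPdiff cells had 7 higher, beside 1.31% of all genes, and 0 lower, beside 0.796%. Compared directly, NotoPdiff cells had 10 genes lower than MPdiff cells, beside 0.442% of all genes, and 0 higher, beside 1.55%, with a median of -0.63 over the 38 genes and of 0 over all genes. These 3 comparisons share libraries, as do those of stages with those of populations in the embryo, and are not independent of each other. With a pseudocount of 0.5 in place of 1, 12 genes were higher in NotoPdiff than in NMPdiff cells, and with a pseudocount of 5 0.

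The largest rise over NMPdiff was that of *Hoxb3* in MPdiff cells (log2 change 4.18) and of *Hoxa3* in NotoPdiff cells (2.88). In MPdiff cells *Hoxd3*, *Hoxd4* and *Hoxd9* rose by 4.02, 3.98 and 3.95, whereas in NotoPdiff cells no HoxD gene exceeded 2.16 FPKM. Of the 10 genes lower in NotoPdiff than in MPdiff cells, 5 were of HoxD, 4 of HoxB, 1 of HoxA and 0 of HoxC. They were led by *Hoxd9* (-3.12), *Hoxd4* (-2.72) and *Hoxd1* (-2.63), and included *Hoxa2* (-2.15). Genes of numbers 10 to 13 stayed below 1 FPKM in all 3 cultures, the highest being *Hoxd13* in MPdiff cells at 0.858 FPKM.

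The highest number that reached 5 FPKM differed between the cultures and the caudal progenitors. In HoxB it was 9 in NotoPs and MPs of both stages and in MPdiff cells, 3 in NotoPdiff cells and 1 in NMPdiff cells. In HoxD it was 9 in E8.5 NotoPs and in MPdiff cells, 10 in E8.5 MPs, 11 in E9.5 NotoPs and 13 in E9.5 MPs, and no HoxD gene reached 5 FPKM in NotoPdiff or NMPdiff cells. In HoxA it was 5 in MPdiff and 3 in NotoPdiff cells, against 9 and 10 in NotoPs and 10 and 11 in MPs at E8.5 and E9.5. No HoxC gene reached 5 FPKM in culture. In trunk notochord it was 3 at E8.5 and 9 at E9.5 in HoxB and 5 at both stages in HoxA, and at E8.5 no gene of HoxC or HoxD reached 5 FPKM, against 4 in HoxC and 1 in HoxD at E9.5. The E8.5 trunk values thus equal those of NotoPdiff cells in HoxB, HoxC and HoxD. FPKM set side by side in this way come from libraries of different sequencing instruments.

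Since most genes of the genome are not expressed, the share past 3-fold was also computed among genes with at least 5 FPKM in 1 of the 2 libraries compared. Depending on the comparison and direction it was 0.980% to 15.9%. At E8.5, 13 of 28 such Hox genes were lower in NotoPs than in MPs, beside 8.73% of all such genes. At E9.5 8 of 35 were (1.89%). Higher at E9.5 were 11 of 28 in NotoPs (3.82%), 10 of 35 in MPs (9.55%) and 4 of 12 in trunk notochord (7.59%). Lower in the trunk than in NotoPs were 14 of 19 at E8.5 (7.3%) and 18 of 28 at E9.5 (8.87%). Lower in NotoPdiff than in MPdiff cells were 10 of 17 (0.98%). Over NMPdiff cells 2 of 4 were higher in NotoPdiff (2.5%) and 16 of 17 in MPdiff cells (1.92%). In each opposite direction at most 1 Hox gene passed.

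A list of 25 regulators and cofactors of Hox genes was examined beside them. It holds the Cdx factors, which activate Hox genes of the trunk, *Gdf11* and the nuclear receptor *Nr6a1*, which act in the change from trunk to tail, *Lin28a* and *Lin28b*, the Evx genes beside HoxA and HoxD, the Meis, Pbx and Pknox cofactors, the retinoic acid receptors, and chromatin regulators of the Trithorax and Polycomb groups. From E8.5 to E9.5, 2 of 25 were lower and 0 higher in both NotoPs and MPs, and they were the same genes, *Nr6a1* and *Cdx1*; of all genes 1.99% and 3.23% were lower. *Nr6a1* had 54.1 and 6.39 FPKM in NotoPs of E8.5 and E9.5, 59.6 and 4.35 in MPs, 41.0 and 20.2 in trunk notochord and 31.5, 43.8 and 53.0 in NMPdiff, NotoPdiff and MPdiff cells. *Cdx1* had 17.8 and 1.47 FPKM in NotoPs of E8.5 and E9.5, 11.9 and 1.05 in MPs, 1.26 and 0 in trunk notochord and 14.0, 27.8 and 19.004 in NMPdiff, NotoPdiff and MPdiff cells. Both were thus lower at E9.5 in NotoPs and MPs, in which 6 and 9 of the 12 Hox genes of numbers 10 to 13 were higher. Both were above 18 FPKM in NotoPdiff and MPdiff cells. Whether the levels of these 2 regulators and of the Hox genes are linked was not tested.

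*Cdx4* had 26.0 and 32.7 FPKM in NotoPs of E8.5 and E9.5, 149.7 and 107 in MPs, 0 and 0 in trunk notochord and 0.315, 1.16 and 2.26 in NMPdiff, NotoPdiff and MPdiff cells. *Cdx2* had 126 and 107 FPKM in NotoPs of E8.5 and E9.5, 50.8 and 52.7 in MPs, 9.23 and 2.22 in trunk notochord and 3.49, 39.9 and 47.0 in NMPdiff, NotoPdiff and MPdiff cells. *Cdx2* and *Cdx4* were thus high in the caudal progenitors and low in the trunk, and *Cdx4* was low in all 3 cultures. Between NotoPs and MPs, 1 regulator was higher in NotoPs at E8.5 (*Meis3*), beside 8.83% of all genes, and 3 were lower (*Cdx4*, *Meis1*, *Pknox1*), beside 4.02%. At E9.5 0 were higher and 3 lower (*Cdx4*, *Gdf11*, *Meis1*), beside 2.63% and 1.11%. Between trunk notochord and NotoPs, 2 were higher and 4 lower at E8.5, beside 4.58% and 4.17% of all genes, and 5 higher and 4 lower at E9.5, beside 4.33% and 5.17%. From E8.5 to E9.5 in the trunk, 2 were higher and 3 lower, beside 4.28% and 5.79%. *Meis1*, a cofactor of Hox proteins, had 2.25 and 2.89 FPKM in NotoPs of E8.5 and E9.5, 12.4 and 11.0 in MPs, 25.6 and 12.8 in trunk notochord and 0.0106, 2.80 and 17.6 in NMPdiff, NotoPdiff and MPdiff cells. In culture 2 of 25, *Meis1* and *Meis2*, were lower in NotoPdiff than in MPdiff cells, beside 0.442% of all genes, and 0 were higher. Over NMPdiff cells, 3 were higher and 1 lower in NotoPdiff cells, beside 1.31% and 0.796% of all genes, and 3 higher and 0 lower in MPdiff cells, beside 0.901% and 1.48%, with *Cdx2* and *Meis1* higher in both. The Polycomb genes *Ezh2*, *Eed* and *Suz12* and the Trithorax gene *Kmt2a* did not pass 3-fold in any of the 10 comparisons.

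The ChIP-seq peaks show where T and Foxa2 were bound in NotoPdiff cultures. With 5 kb added on either side, the 4 clusters, HoxA from *Hoxa2* on, hold 11 of 6875 T peaks and 4 of 22684 Foxa2 peaks. T peaks were dense in HoxA, with 6 in 0.108 Mb (55.3 per Mb), followed by 4 in HoxB (21.7 per Mb), 1 in HoxD (9.35 per Mb) and 0 in HoxC, beside 2.52 per Mb over the genome and 5.25 per Mb in the 500 kb on both sides of the clusters. Foxa2 had 2 peaks in HoxD (18.7 per Mb), 1 in HoxA (9.22 per Mb), 1 in HoxC (7.95 per Mb) and 0 in HoxB, beside 8.32 per Mb over the genome and 13.0 per Mb in the flanks. The differences in density were not tested, and a density over the genome includes its gene-poor regions.

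In HoxA the 6 T peaks lie between *Hoxa2* and *Hoxa9*, and none lies beyond *Hoxa9*. The first lay 413 bases before the start of *Hoxa2* (chr6:52165134-52165457, fold enrichment 6.13) and another 12121 bases before it, in the long intron of *Hoxa3* (chr6:52176760-52177279, 8.03). A further one lay in the intron of *Hoxa4*, 837 bases after its start (chr6:52190667-52191133, 10.8). A pair of peaks lay in the interval after *Hoxa5*, 4526 and 3498 bases from its start, within the span of *Hoxa3*, the former being the strongest of the 6 (chr6:52199678-52200295, 11.7, and chr6:52200969-52201254, 4.90); the latter lies 35 bases before the start of the antisense transcript *Hoxaas3*. The weakest lay in the interval between *Hoxa7* and *Hoxa9*, 3538 bases before *Hoxa7* (chr6:52221849-52222179, 3.29). The Foxa2 peak of HoxA lay 1695 bases before the start of *Hoxa11*, in an intron of *Hoxa11os* (chr6:52247339-52247757, 11.4).

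In HoxB the strongest T peak lay in the 3′ UTR of *Hoxb8*, 1454 bases before the start of *Hoxb7* (chr11:96284910-96285435, fold enrichment 13.7). The others lay in an intron of *Hoxb3* (chr11:96333420-96333708, 6.51), 4838 bases after the start of *Hoxb1*, beyond its end (chr11:96370407-96370810, 5.60), and 4068 bases before the start of *Hoxb13* (chr11:96190090-96190440, 7.63). In HoxD the single T peak had its summit in the 5′ UTR of *Hoxd1*, 28 bases after its start and 112 bases before that of the antisense transcript *Haglr* (chr2:74762799-74763106, 4.55). A Foxa2 peak lay nearby, 1217 bases before the start of *Hoxd1*, in an intron of *Haglr* (chr2:74761542-74762063, 11.4), and did not overlap it. The other Foxa2 peak of HoxD was 3152 bases before *Hoxd3*, in an intron of the antisense gene *Gm38462* (chr2:74708661-74708962, 10.3). In HoxC the single peak was that of Foxa2 3453 bases before *Hoxc13* (chr15:102917460-102917921, 20.8), with a fold enrichment above that of 99.6% of all Foxa2 peaks. The 11 T peaks had a median fold enrichment of 6.51 and the 4 Foxa2 peaks of 11.4, compared with 7.45 and 7.19 over all peaks of each factor.

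**Figure D4:**
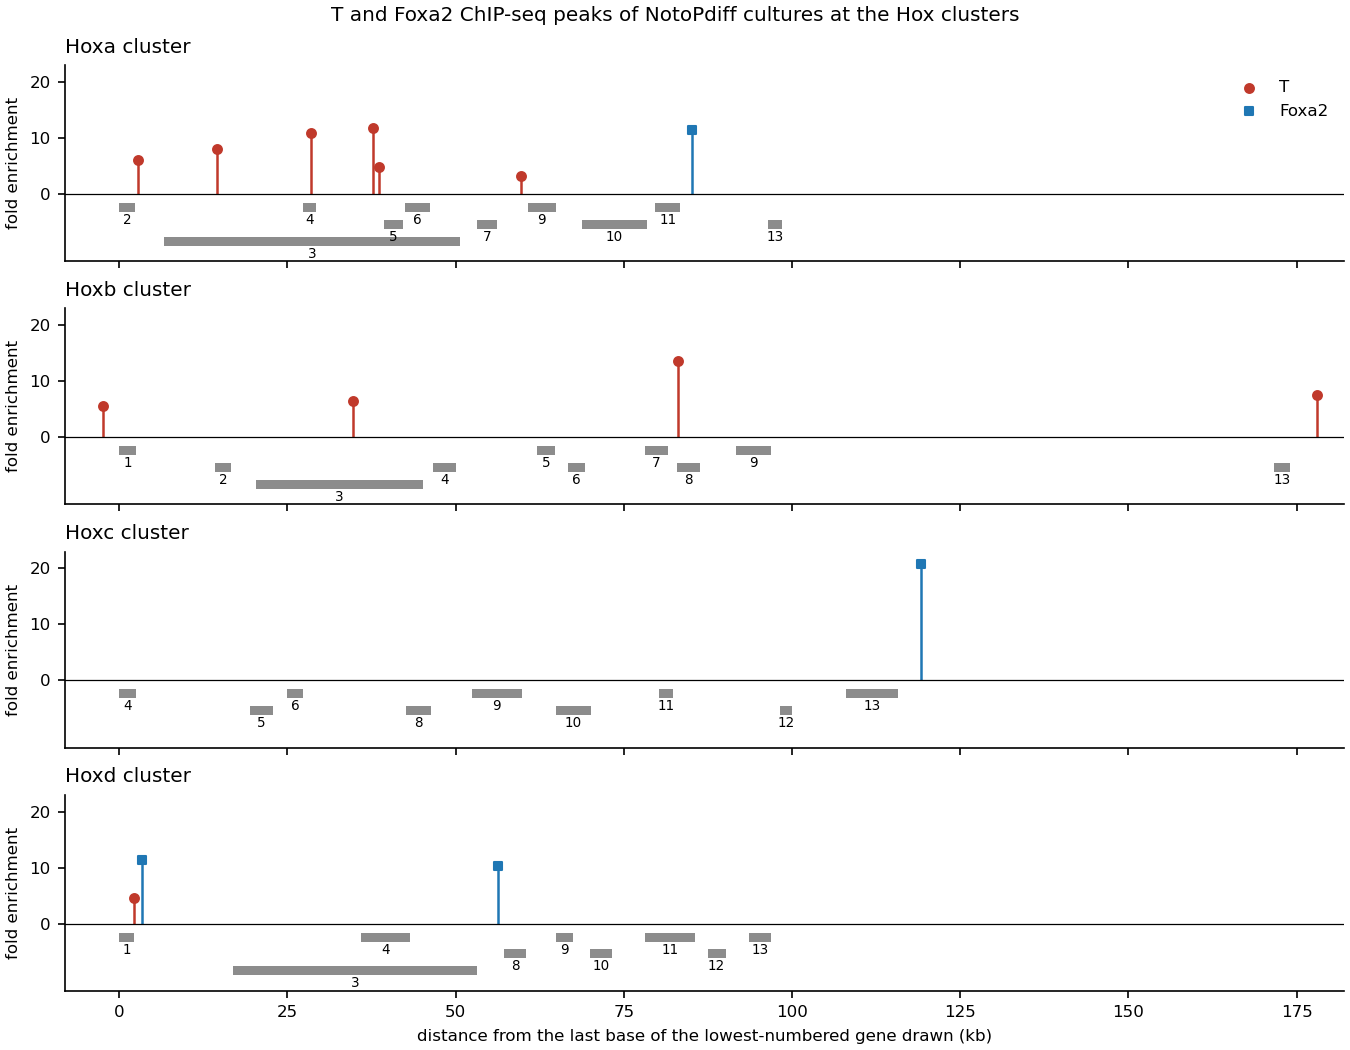
T (red circles) and Foxa2 (blue squares) peaks of NotoPdiff cultures along the 4 Hox clusters; height is the fold enrichment at the summit, the horizontal axis the distance in kb from the last base of the lowest-numbered gene drawn, and grey bars with numbers are the Hox genes. HoxA holds 6 T peaks, 5 between *Hoxa2* and *Hoxa5* and 1 between *Hoxa7* and *Hoxa9*, HoxC holds none, and the tallest peak is that of Foxa2 beyond *Hoxc13*, at 20.8.

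Within 150 bases of the summits, both strands were searched for the T-box letters TCACACCT, for their core TCACAC, which the longer word contains, and for the forkhead letters TGTTTAC; a further forkhead word, TATTTAC, was added after the sequences were seen. The 8 letters were found at 0 of 11 T and 0 of 4 Foxa2 peaks of the clusters, beside 4.83% and 1.40% of all peaks of the 2 factors and 1.28% of promoters of 300 bases. The core was found at 4 T and 0 Foxa2 peaks (36.1% and 27.6% of all peaks, 14.5% of promoters), TGTTTAC at 2 and 0 (15.96%, 16.3% and 3.65%) and TATTTAC at 1 and 1 (9.82%, 17.1% and 3.04%). With 11 and 4 peaks these counts describe letters, not binding sites. Of 24 Hox promoter sequences in RefSeq, for 22 genes, TCACACCT stands in that of *Hoxd9* and TATTTAC in those of *Hoxa2* and *Hoxd1*.

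The sequences that follow are the strongest of the 6 T peaks of HoxA, the T peaks whose 201-base window holds the core, and the strongest Foxa2 peaks of HoxA, HoxC and HoxD (mm10, plus strand, 5′ to 3′, read from RefSeq's GRCm38.p6; 100 bases on either side of the summit). Capitals mark the searched letters on either strand. Windows that touch an exon, such as those at *Hoxb8* and *Hoxd1*, are not shown.
T between *Hoxa4* and *Hoxa5*, chr6:52199961-52200161: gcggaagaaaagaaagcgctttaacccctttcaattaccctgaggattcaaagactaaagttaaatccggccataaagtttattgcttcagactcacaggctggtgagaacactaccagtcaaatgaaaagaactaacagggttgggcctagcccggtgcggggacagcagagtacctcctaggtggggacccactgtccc
T in the intron of *Hoxa4*, chr6:52190766-52190966: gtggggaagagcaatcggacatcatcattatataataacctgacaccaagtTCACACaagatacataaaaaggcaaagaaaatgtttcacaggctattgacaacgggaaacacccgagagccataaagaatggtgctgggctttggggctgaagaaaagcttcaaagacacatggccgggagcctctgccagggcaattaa
T in an intron of *Hoxb3*, chr11:96333482-96333682: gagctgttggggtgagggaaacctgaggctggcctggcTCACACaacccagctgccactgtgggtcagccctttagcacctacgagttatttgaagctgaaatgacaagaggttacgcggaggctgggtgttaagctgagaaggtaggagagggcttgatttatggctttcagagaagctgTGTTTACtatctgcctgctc
T beyond *Hoxb1*, chr11:96370496-96370696: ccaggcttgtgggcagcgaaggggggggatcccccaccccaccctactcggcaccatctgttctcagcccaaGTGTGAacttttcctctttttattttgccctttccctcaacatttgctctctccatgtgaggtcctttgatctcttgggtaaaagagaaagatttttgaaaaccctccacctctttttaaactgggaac
Foxa2 before *Hoxa11*, chr6:52247405-52247605: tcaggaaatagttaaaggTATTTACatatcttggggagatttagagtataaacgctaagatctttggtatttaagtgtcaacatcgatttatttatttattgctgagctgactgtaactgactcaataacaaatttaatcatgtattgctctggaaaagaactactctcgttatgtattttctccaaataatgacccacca
Foxa2 before *Hoxc13*, chr15:102917578-102917778: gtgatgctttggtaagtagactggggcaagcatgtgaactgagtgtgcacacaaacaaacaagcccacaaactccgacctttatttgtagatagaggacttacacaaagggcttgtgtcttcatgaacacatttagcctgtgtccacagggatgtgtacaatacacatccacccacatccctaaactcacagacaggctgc
Foxa2 before *Hoxd1*, chr2:74761663-74761863: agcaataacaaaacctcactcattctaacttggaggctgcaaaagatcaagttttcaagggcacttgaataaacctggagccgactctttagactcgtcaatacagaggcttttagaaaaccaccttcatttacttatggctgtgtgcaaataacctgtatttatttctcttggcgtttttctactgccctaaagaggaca

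In the *Hoxa4* and *Hoxb3* introns the core begins 49 and 62 bases before the summit, and the *Hoxb3* window also holds TGTTTAC, 81 bases after it. Beyond *Hoxb1* the core lies on the minus strand, 28 bases before the summit. At *Hoxa11* the second forkhead word begins 82 bases before the summit. The sequences between *Hoxa4* and *Hoxa5* and at *Hoxc13* and *Hoxd1* contain none of the searched letters.

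Expression of the genes next to the peaks varied widely in sorted NotoPdiff cells, whereas the peaks are from unsorted cultures. In these cells the members whose starts lay nearest to T peaks were at 28.0 (*Hoxb1*), 8.44 (*Hoxb3*), 3.97 (*Hoxa5*), 2.80 (*Hoxa2*), 2.69 (*Hoxb7*), 1.94 (*Hoxa4*), 1.44 (*Hoxd1*), 0.549 (*Hoxa7*) and 0 FPKM (*Hoxb13*). Those nearest to Foxa2 peaks were at 2.16 (*Hoxd3*), 1.44 (*Hoxd1*), 0.160 (*Hoxc13*) and 0 FPKM (*Hoxa11*). The Foxa2 peaks thus lie beside genes of both ends of the clusters, including *Hoxa11* and *Hoxc13*, which were below 1 FPKM in these cells. Of the 10 genes lower in NotoPdiff than in MPdiff cells, 3 (*Hoxa2*, *Hoxb3* and *Hoxd1*) are nearest to a T peak and 2 (*Hoxd1* and *Hoxd3*) to a Foxa2 peak, while of all 38 genes 9 and 4 are. No ChIP-seq library of T or Foxa2 from MPdiff or NMPdiff cells was analysed here, and an effect of the peaks on these genes was not tested.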

How the data were processed

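The RNA-seq values are FPKM (fragments scaled by transcript length and by library size), which the authors deposited as 1 table of 23983 genes with 1 column for each of 9 libraries. Per the study's methods, the authors trimmed reads, mapped them by strand to mm10 with TopHat2 2.1.1 and Bowtie 1.2.2 using RefSeq models, removed duplicates by molecular identifier and estimated FPKM with Cufflinks 2.2.1 using multi-read and bias correction. The authors called ChIP-seq peaks with MACS3 3.0.0b1 at a q of 0.1 on each library, after mapping to mm10 with Bowtie 1.3.1, and whether an input library was used is not given in the sources used here. The deposited peak lists hold a fold enrichment at the summit, a −log10 p-value and q-value, and a score, which was not used. No other per-sample columns were present (0).

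From these values, log2 ratios were formed after adding a pseudocount of 1 FPKM to both, without a filter on low values, and a gene was called at 3-fold, since there is 1 library per condition and no test was made. A peak belonged to a cluster when its summit lay within 5 kb of it. Gene positions and sequences are RefSeq's (GRCm38.p6, the build of mm10). Python 3.11.15, numpy 2.4.6, pandas 2.3.3, matplotlib 3.10.9 and samtools 1.23.1 were used, and the fold rule was tested on simulated data. The simulation had little noise and changed only genes of at least 5 FPKM. It checks the arithmetic of the rule and says nothing of calls at low levels or of noise in single libraries. FPKM give no depth; the study's supplementary methods list mapped reads for the embryonic libraries, which were used only for their order, and no counting error was estimated. A Hox gene and the peaks beside it are not reported here. The Hox genes and all lists were chosen with earlier results of these data known.

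Values in all libraries are given for the gene of each paralogue number with the highest mean FPKM, for the gene with the largest 3-fold change in each direction of each comparison and for the gene nearest each peak. Sequences are given for the strongest peak of each factor in each cluster unless it touches an exon, which left out the strongest T peaks of HoxB and HoxD; 3 further windows, all of T peaks with a searched word, were added after they were seen. Alternatives were other pseudocounts, folds and minimum levels, median-of-ratios scaling, the E9.5 MP library for that of E8.5, other shares by number, and other limits for peaks. The other 10 of 21 samples, from ATAC-seq and histone ChIP-seq, were not used here.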

Additional observations from a re-analysis of the deposited data

Results flagged for a closer look

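Changes past 3-fold in opposite directions between matching contrasts were found for 3 Hox genes, for *Hoxb5* between an embryonic and a cultured contrast. The share of all genes that did so was not computed. Each case rests on 1 library per condition, so that the difference between the contrasts was not tested. *Hoxd3* was higher at E9.5 than at E8.5 in NotoPs (log2 change 1.69; 4.55 and 16.9 FPKM) and lower in trunk notochord (-2.01; 3.03 and 0 FPKM). *Hoxb9* was lower at E9.5 in MPs (-1.60; 127 and 41.2 FPKM) and higher in trunk notochord (1.98; 3.26 and 15.9 FPKM). *Hoxb5* was higher in NotoPs than in MPs at E8.5 (1.92; 7.96 and 1.37 FPKM) and lower in NotoPdiff than in MPdiff cells (-2.34; 0.488 and 6.53 FPKM). The values of *Hoxd3* in the trunk are under 5 FPKM at both stages, and the changes of *Hoxb9* and *Hoxb5* include the E8.5 MP library, which has the most genes listed at 0. The other 35 Hox genes described did not pass 3-fold in opposite directions between matching contrasts.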

How the results depend on the processing

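No paired analysis was possible because every condition has 1 library and no replicate number is shared; a fit of stage across the 3 embryonic populations was not run. Counts of Hox genes past the threshold depended mostly on how low values were handled. With a pseudocount of 5, NotoPs against MPs at E8.5 gave 0 higher and 7 lower and at E9.5 4 lower; E9.5 against E8.5 gave 7 higher in NotoPs, 0 lower in MPs, and 0 higher and 0 lower in trunk notochord; trunk notochord against NotoPs gave 6 lower at E8.5 and 14 at E9.5; NotoPdiff against MPdiff gave 3 lower, NotoPdiff against NMPdiff 0 higher and MPdiff against NMPdiff 10 higher. With a pseudocount of 0.5, NotoPdiff against NMPdiff gave 12 higher. At 2-fold, NotoPs against MPs at E8.5 gave 4 higher, MPs E9.5 against E8.5 6 lower, trunk notochord E9.5 against E8.5 17 higher, trunk notochord against NotoPs at E8.5 1 higher and NotoPdiff against NMPdiff 13 higher. Among genes with at least 5 FPKM in a pair, trunk notochord E9.5 against E8.5 gave 4 higher and 1 lower, and NotoPdiff against NMPdiff 2 higher. With E9.5 MPs in place of E8.5 MPs, which changes the stage as well, NotoPs of E8.5 had 0 higher. At least 5 FPKM were reached by 6 Hox genes in trunk notochord of E8.5, by 10 in that of E9.5, by 4 in NotoPdiff and by 1 in NMPdiff cells. Foxa2 peaks numbered 8 with 50 kb on either side in place of 5 kb. In all, 100 of 127 of these values stayed within 1.5 times of the value reported. Among them are counts of 0 that stayed 0, which a pseudocount of 5 or the limit of 5 FPKM could not have raised. With a pseudocount of 5, 12 of 20 counts moved. All 20 under median-of-ratios scaling stayed, but its factors were only 1.003 to 1.032, so that it could change little. The values are counts, and the cause of their changes was not tested. Of the shares by paralogue number 13 of 54 moved, 10 of them when log values were summed. Without replicates or read counts per gene no error was set beside these values.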

Other observations

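Transcripts in and beside the clusters that are not Hox genes were looked at after the values were seen. *Halr1*, a noncoding transcript beside HoxA, had 44.1 and 32.4 FPKM in NotoPs at E8.5 and E9.5, 39.6 and 25.7 in trunk notochord, 0 and 0.822 in MPs, and 0, 9.28 and 0.156 in NMPdiff, NotoPdiff and MPdiff cells. It was thus found in the 5 libraries sorted for Noto and at less than 1 FPKM in the other 4, unlike the Hox genes described. A T peak 591 bases before its start (fold enrichment 5.68) overlapped a Foxa2 peak 259 bases before it (6.68). *Hoxaas3*, an antisense transcript that spans *Hoxa5* and *Hoxa6*, had 87.0 and 98.0 FPKM in NotoPs, 143 and 139 in MPs, 0 in both libraries of trunk notochord and in NMPdiff cells, and 4.26 and 8.12 in NotoPdiff and MPdiff cells, and *Mira*, beside it, had 23.7, 54.1, 55.4 and 64.3 FPKM in the 4 caudal libraries and 0 in the trunk.

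*Hoxa11os*, antisense to *Hoxa11*, had 4.55 FPKM in NotoPs and 29.3 in MPs at E9.5, and was at 0 in the other 4 embryonic libraries. *Hotair*, in HoxC, was found in the same 2 libraries, at 1.16 and 4.12 FPKM. *Evx1*, beyond the *Hoxa13* end, had a T peak 40 bases after its start (fold enrichment 4.09) and 10.8 to 23.5 FPKM in the 4 caudal libraries, against 0.764 and 0 in trunk notochord. *Hottip*, *Evx2* and the microRNA entries of the clusters are listed at 0 in all 9 libraries.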
